A study of Mus musculus with 32 samples.

Results

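Txnip, the alpha-arrestins Arrdc1, Arrdc2, Arrdc3 and Arrdc4, and the carbohydrate-responsive transcription factor pair Mlxipl (ChREBP) and Mlx were followed in the liver and the epididymal white adipose tissue (eWAT) of mice given corticosterone (cort) on a normal protein or a high protein diet. The 7 genes were taken by symbol from a count table of 47643 gene IDs, of which 47224 matched a GENCODE symbol, and all 7 were found and passed the filter on low counts in both tissues. The set was chosen by earlier results on the same raw counts, CPM (counts scaled to a common library size) and log2 changes with cort and diet. The members' changes are therefore described with their errors, and no p-value is printed for them. Which members passed an adjusted p threshold is only counted beside the share of all genes, and is not used as evidence.

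The mice were 10-week-old male C57BL/6J animals that received cort (Cort) or an ethanol vehicle (Veh) in the drinking water. Each treatment was combined for 7 days with a normal protein diet (NPD; 20% of kcal from protein) or a high protein diet (HPD; 60% of kcal from protein), which gave Veh NPD and Cort NPD mice, and Veh HPD and Cort HPD mice, with 4 libraries per group and tissue. Protein replaced starch in the HPD at equal energy, and the mice were fasted before the tissues were taken. RNA was measured by QuantSeq, a 3′ end tag method in which each transcript gives about 1 tag whatever its length. 1 of the 32 libraries, liver Veh HPD replicate 4, was left out of the liver fits by a choice made before them, without an outlier test. So 16 eWAT and 15 liver libraries were compared and liver Veh HPD has n = 3. Fits with it put back are among the alternatives given below. The labels do not say which liver and which eWAT came from the same mouse.

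Txnip (thioredoxin-interacting protein) is an alpha-arrestin that binds thioredoxin and that draws glucose transporters off the cell surface, and its transcription is known to rise when glucose is plentiful. The other alpha-arrestins act as adaptors that bring ubiquitin ligases of the Nedd4 family to membrane proteins, and Arrdc4 shares with Txnip both glucose responsiveness and an effect on glucose uptake. ChREBP is a basic helix-loop-helix factor that binds DNA as a dimer with Mlx when sugar metabolites accumulate, and in liver and fat it drives genes of glycolysis, fructose use and lipid synthesis. Mlxip (MondoA) is its close relative and uses the same partner.

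On GRCm38 Txnip (ENSMUSG00000038393) lies at chr3:96557957-96561883 on the plus strand. The other alpha-arrestins are Arrdc1 (ENSMUSG00000026972, chr2:24925352-24935252, minus strand), Arrdc2 (ENSMUSG00000002910, chr8:70835129-70839720, minus strand), Arrdc3 (ENSMUSG00000074794, chr13:80883384-80896042, plus strand) and Arrdc4 (ENSMUSG00000042659, chr7:68736995-68749241, minus strand). Mlxipl (ENSMUSG00000005373) lies at chr5:135089890-135138382 and Mlx (ENSMUSG00000017801) at chr11:101087277-101092207, both on the plus strand.

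The DNA that ChREBP and Mlx recognise, the carbohydrate response element, is a pair of E-box-like motifs with a fixed spacing, and it is shown here for Txnip because that gene is the textbook example of such control. In RefSeq promoter windows (GRCm38.p6), the stretch just upstream of the Txnip start lies at chr3:96557822-96557956 on the plus strand, and the capitals mark CACGNG and CNCGNG with 5 bases between them.
Txnip: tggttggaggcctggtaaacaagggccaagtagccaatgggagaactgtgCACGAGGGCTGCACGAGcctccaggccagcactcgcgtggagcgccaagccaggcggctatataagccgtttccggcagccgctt
Single E-boxes, CACGTG, were present upstream of Arrdc4 (chr7:68749399-68749458, minus strand), Mlx (chr11:101087230-101087276, plus strand) and Mlxipl (chr5:135089770-135089829, plus strand), and are marked in capitals.
Arrdc4: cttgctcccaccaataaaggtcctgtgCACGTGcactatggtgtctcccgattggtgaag
Mlx: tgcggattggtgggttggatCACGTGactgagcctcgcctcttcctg
Mlxipl: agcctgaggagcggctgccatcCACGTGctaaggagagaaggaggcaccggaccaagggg
The paired motif occurred in 120 of 32851 windows of 300 bases (0.365%), searched on both strands, and in 1 of the 10 windows of the 7 genes. A single CACGTG occurred in 7.15% of all windows and in 3 of the 10, and the glucocorticoid receptor motif, AGAACA and TGTTCT with 3 bases between them, occurred in 0.00913% of all windows and in 0 of the 10. A match describes the letters of the window and is not a measured binding site.

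Total counts ranged from 8933307 to 18057936 per library, and levels below are CPM, with library sizes scaled by trimmed means within each tissue. Adipocyte markers summed to 27728.5 to 51248.8 CPM in eWAT and to 84.4 CPM or less in the liver libraries used, while the 6 hepatocyte markers summed to 55763.4 to 226504 CPM in liver. The hepatocyte sum was highest in liver Cort HPD (125042 to 226504 CPM, against 85126.8 to 107732 in Cort NPD), and the red blood cell sum was highest in Cort HPD of both tissues (5271 to 7622 CPM in liver and 12684 to 25856 CPM in eWAT). Epididymis markers reached 5418 CPM in eWAT Cort HPD replicate 4, with 2 of its 6 genes at 0, and 3.69 CPM or less elsewhere. Liver Veh HPD replicate 4 had a hepatocyte sum of 31680.7 CPM, below the 55763.4 to 65302.9 of its group. Fkbp5, a standard glucocorticoid receptor target, rose with cort on the NPD by 1.74 ± 0.39 (SE) on the log2 scale in eWAT (edgeR adjusted p = 0.0156, and 1.58 with adjusted p = 0.0552 without Veh NPD replicate 3) and by 2.23 ± 0.48 in liver (adjusted p = 0.00939). On the HPD the Fkbp5 change was 0.60 ± 0.38 in eWAT (adjusted p = 0.445) and 1.15 ± 0.51 in liver (adjusted p = 0.188). Fkbp5 came from a list of 9 glucocorticoid genes, and the other 8 did not pass an adjusted p under 0.05 on the NPD in either tissue. With cort on the HPD 2 of the 9 passed as lower in eWAT and 3 in liver, and none as higher. Of all genes, 2.63% in eWAT and 5.14% in liver passed as lower there. The list's median change on the HPD was -0.27 in eWAT and -0.41 in liver.

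Txnip was lowest, in liver, in mice that received both cort and the HPD. Its liver level was 98.4, 95.3, 169.9 and 104.9 CPM in the 4 Veh NPD mice and 65.8, 106.6 and 103.2 CPM in the 3 Veh HPD mice. In Cort NPD liver it was 94.4, 122.6, 115.8 and 89.5 CPM, and in Cort HPD liver it was 36.5, 36.3, 38.3 and 34.9 CPM. Every Cort HPD liver lay below every liver of the other 3 groups, the 4 values lay close together, and the other 3 groups overlapped one another. The fitted effect of cort on the HPD was -1.33 ± 0.20 on the log2 scale, or 39.8% of the Veh HPD level, and the effect of the HPD in cort-treated mice was -1.53 ± 0.19, or 34.6% of the Cort NPD level. On the NPD cort gave -0.15 ± 0.18, and in vehicle mice the HPD gave -0.35 ± 0.20. Without Veh NPD replicate 3, the mouse at 169.9 CPM, these were 0.07 and -0.11, and the HPD value was -0.15 when Veh HPD replicate 1 was left out. The diet by cort interaction of Txnip in liver was -1.18 ± 0.27. With liver Veh HPD replicate 4, which had 63.1 CPM, put back, the cort effect on the HPD was -1.20 ± 0.21. The liver Cort HPD libraries are those with the highest hepatocyte and red blood cell marker sums. The sum of 4 endothelial markers was 28.0 to 41.7 CPM in them, against 43.9 to 84.6 in Cort NPD, 54.8 to 70.0 in Veh HPD and 39.6 to 59.5 in Veh NPD, the only group it overlapped. The part of these in the Txnip values was not tested. In these bulk tissues fewer cells that express a gene and less RNA per cell cannot be told apart.

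In eWAT, the mean Txnip level was lower with cort on both diets. It was 1795, 2968, 1681 and 1951 CPM in Veh NPD and 2049, 3279, 2399 and 2871 CPM in Veh HPD. It was 1496, 1747, 1556 and 945 CPM in Cort NPD and 1764, 1674, 1581 and 1517 CPM in Cort HPD. The Cort HPD values all lay below the Veh HPD values, while on the NPD 1 Cort mouse (1747 CPM) lay above 1 Veh mouse (1681 CPM). The cort effect was -0.55 ± 0.19 on the NPD and -0.70 ± 0.19 on the HPD, so the 2 diets differed by -0.15 ± 0.26. The diet effect was 0.34 ± 0.18 in Veh and 0.19 ± 0.18 in Cort, upward in both, where in liver it was downward in both. Without Veh NPD replicate 2, the mouse at 2968 CPM, the cort effect on the NPD was -0.33 and the diet effect in Veh 0.55, and the latter was 0.21 when Veh HPD replicate 2 was left out. The adipocyte marker sum was also lower with cort, 27728.5 to 34454.6 CPM in the 8 Cort libraries against 30673.2 to 51248.8 CPM in the 8 Veh libraries, and its part in the Txnip values was not tested. Without eWAT Cort HPD replicate 4, the library with epididymis transcripts, the cort effect on the HPD was -0.66. Scaled together over both tissues, Txnip averaged 1479 ± 423 CPM in eWAT and 169 ± 51.2 CPM in liver of Veh NPD mice (SD, n = 4). The antisense gene Gm15441 covers all of Txnip on the other strand and had 144 counts over all libraries, against 480522 for Txnip.

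**Figure D1:**
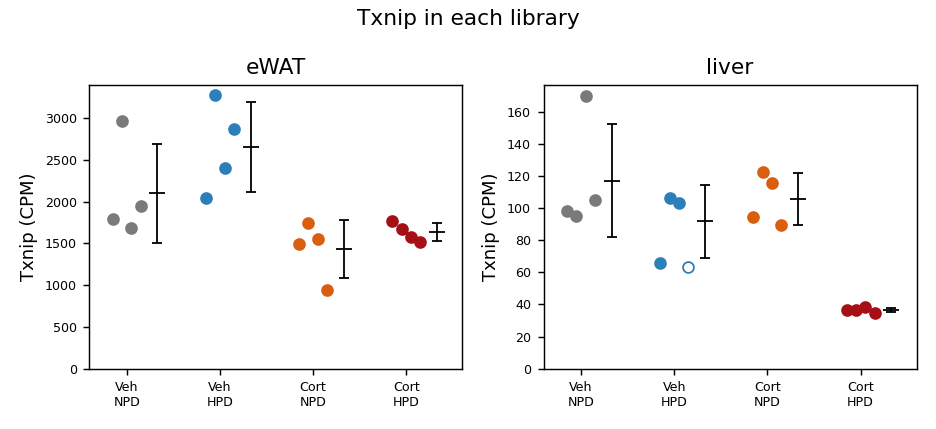
Txnip level (CPM, linear axis from 0) in each eWAT and liver library by group; filled points are mice in the fits, the open point is liver Veh HPD replicate 4, and the black bar is the mean ± SD of the filled points. The 4 liver Cort HPD mice sit between 34.9 and 38.3 CPM, below all others in liver, and in eWAT the Cort groups sit lower than the Veh groups with overlap on the NPD.

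Arrdc4, the alpha-arrestin most like Txnip in its known glucose response, went the other way from Txnip in liver. It was 4.43, 2.76, 3.38 and 5.07 CPM in liver of Veh NPD mice and 5.47, 6.83 and 4.53 CPM in Veh HPD. It was 6.39, 5.44, 5.38 and 8.27 CPM in Cort NPD and 7.04, 13.7, 9.03 and 8.61 CPM in Cort HPD. All Cort livers were above all Veh livers of the same diet, with the 2 diets overlapping within each treatment. The cort effect was 0.70 ± 0.25 on the NPD and 0.79 ± 0.26 on the HPD, and the diet effect was 0.51 ± 0.27 in Veh and 0.59 ± 0.24 in Cort. Without Cort HPD replicate 2, the mouse at 13.7 CPM, the Arrdc4 cort effect on the HPD was 0.56. These values rest on 26 to 236 counts per liver library. In eWAT Arrdc4 ranged from 5.14 to 14.1 CPM with overlap in every comparison, and cort gave -0.50 ± 0.28 on the NPD and 0.01 ± 0.28 on the HPD.

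Arrdc3, an adaptor known for handling beta-adrenergic receptors, varied widely between mice of one group, with a within-group SD of 0.59 in liver and 0.70 in eWAT on the log2 scale. In liver it was 57.5, 34.5, 138.0 and 112.5 CPM in Veh NPD and 175.1, 95.2 and 197.8 CPM in Veh HPD. It was 79.0, 75.6, 89.6 and 75.1 CPM in Cort NPD and 63.6, 47.2, 91.3 and 43.9 CPM in Cort HPD. The Cort HPD livers all lay below the 3 Veh HPD livers, by as little as 91.3 against 95.2 CPM, and the other 3 liver comparisons overlapped. The cort effect on the HPD was -1.34 ± 0.41 and on the NPD -0.10 ± 0.38, and the HPD effect was 0.87 ± 0.41 in Veh mice and -0.38 ± 0.38 in Cort mice. Liver Veh HPD replicate 4 had 25.4 CPM, below the 95.2 to 197.8 of its group, and with it the cort effect on the HPD was -0.997 ± 0.54. In eWAT Arrdc3 was 60.3, 200.3, 43.5 and 84.1 CPM in Veh NPD and 46.5, 148.5, 83.8 and 72.5 CPM in Veh HPD. It was 76.2, 78.4, 61.3 and 30.2 CPM in Cort NPD and 32.2, 50.5, 36.4 and 25.6 CPM in Cort HPD, with overlap in every comparison. The cort effect in eWAT was -0.66 ± 0.49 on the NPD and -1.29 ± 0.50 on the HPD, and the first became -0.02 without Veh NPD replicate 2, the mouse at 200.3 CPM.

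Arrdc2 and Arrdc1, less studied adaptors of the same family, showed overlapping groups throughout. Arrdc2 varied most between eWAT mice of one group (within-group SD 0.73 on the log2 scale), ranged from 3.70 to 19.9 CPM in eWAT and from 1.58 to 5.19 CPM in liver, and the groups overlapped in all 8 comparisons. Its cort effect in eWAT was -0.04 ± 0.44 on the NPD and -0.47 ± 0.44 on the HPD, and the second was 0.11 without Veh HPD replicate 2, the mouse at 19.9 CPM. In liver the Arrdc2 cort effect was -0.34 ± 0.35 on the NPD and -0.71 ± 0.37 on the HPD, and leaving out 1 library gave -0.64 to -0.03 for the first and -0.33 for the second when Veh HPD replicate 2 was absent. Arrdc1 ranged from 4.14 to 9.40 CPM in eWAT, where cort gave -0.45 ± 0.29 on the NPD and 0.24 ± 0.29 on the HPD. In liver Arrdc1 was 0.612 to 1.62 CPM, which is 6 to 23 counts per library, and its cort effects were 0.16 ± 0.43 and -0.17 ± 0.44, both smaller than their SE.

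**Figure D2:**
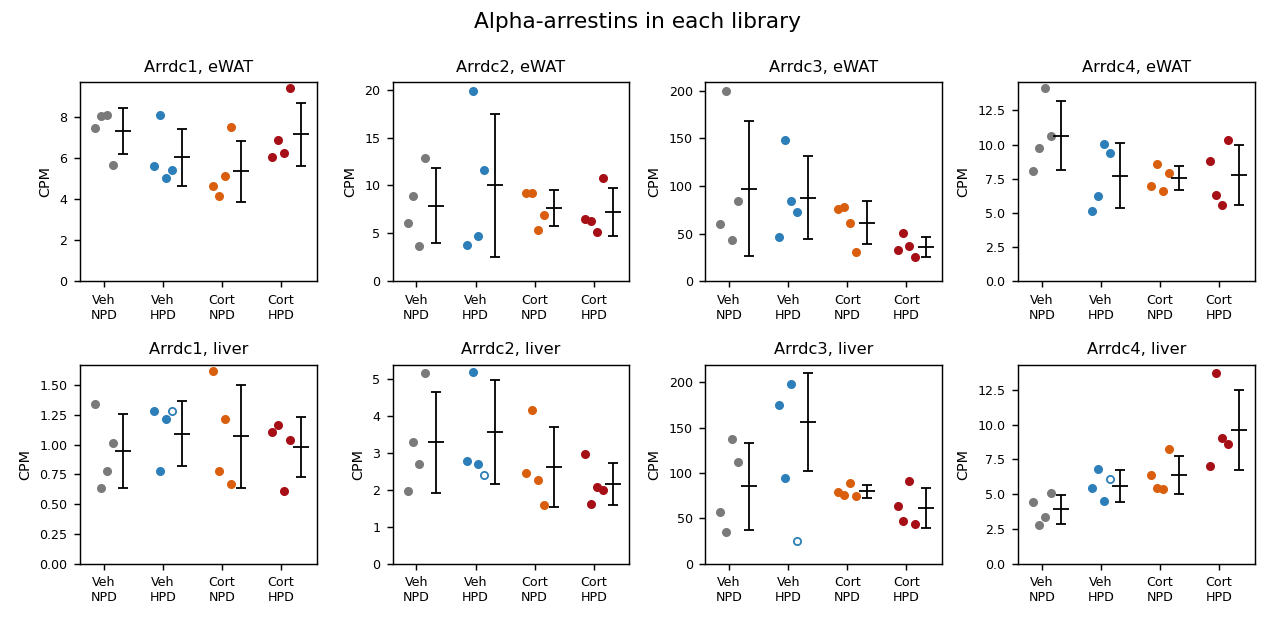
Levels (CPM, linear axes from 0) of Arrdc1, Arrdc2, Arrdc3 and Arrdc4 in each library by group, eWAT above and liver below; filled points are mice in the fits, the open point is liver Veh HPD replicate 4, and bars are mean ± SD of the filled points. Liver Arrdc4 is higher in all Cort mice than in Veh mice of the same diet, and Arrdc3 values overlap except for cort on the HPD in liver.

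Mlxipl, the gene of ChREBP, was about doubled with cort in eWAT on both diets. It was 28.1, 35.1, 22.8 and 28.1 CPM in Veh NPD and 32.4, 26.1, 18.9 and 39.8 CPM in Veh HPD. It was 64.3, 57.1, 54.8 and 67.0 CPM in Cort NPD and 53.8, 64.3, 53.4 and 48.5 CPM in Cort HPD. All 8 Cort fat pads were above all 8 Veh fat pads, and the diets overlapped within each treatment. The cort effect was 1.09 ± 0.18 on the NPD, or 213% of the Veh level, and 0.91 ± 0.18 on the HPD, or 188%. In eWAT the hepatocyte marker sum was 2079.8 to 3995.6 CPM in Cort against 915 to 2480.1 in Veh, and the lymphocyte sum 1.74 to 8.23 against 7.42 to 18.6 CPM, both with overlapping ranges, beside the adipocyte sums given above. In eWAT Veh HPD replicate 1, at 1712 CPM, 3 of the 6 hepatocyte genes were at 0, so few genes can make that sum. The part of these sums in the Mlxipl values was not tested. The diet effect of Mlxipl in eWAT was 0.04 ± 0.18 in Veh and -0.15 ± 0.17 in Cort. In liver Mlxipl was 73.7, 50.4, 47.5 and 33.6 CPM in Veh NPD and 66.2, 54.4 and 28.2 CPM in Veh HPD. It was 40.2, 33.3, 51.3 and 47.4 CPM in Cort NPD and 29.0, 45.8, 34.0 and 43.0 CPM in Cort HPD, with overlap throughout. The liver cort effects were -0.25 ± 0.25 and -0.39 ± 0.27, and the second was -0.12 when Veh HPD replicate 1 was left out and -0.66 when replicate 3 was. Transcripts of the alpha and beta forms of ChREBP share their 3′ end, so 3′ tags cannot tell them apart.

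Mlx, the dimer partner, moved in opposite directions in the 2 tissues of mice on the NPD. In eWAT it was 19.6, 21.0, 18.8 and 22.7 CPM in Veh NPD and 32.9, 33.3, 23.7 and 37.8 CPM in Cort NPD, every Cort value above every Veh value. In liver it was 34.9, 40.9, 32.2 and 42.1 CPM in Veh NPD and 28.2, 23.6, 20.0 and 22.1 CPM in Cort NPD, every Cort value below every Veh value. The cort effect on the NPD was 0.64 ± 0.17 in eWAT and -0.68 ± 0.15 in liver. On the HPD the effects were smaller, 0.33 ± 0.17 in eWAT and -0.17 ± 0.16 in liver, and the groups overlapped in both. The HPD values were 18.02, 21.8, 19.7 and 27.0 CPM in Veh and 25.9, 29.8, 28.5 and 24.2 CPM in Cort eWAT. In liver they were 34.1, 29.6 and 37.0 CPM in Veh and 30.3, 27.1, 29.2 and 32.5 CPM in Cort. The diet by cort interaction of Mlx was 0.50 ± 0.21 in liver and -0.31 ± 0.24 in eWAT. Psmc3ip overlaps Mlx by 385 bases on the other strand and had 273 counts over all libraries.

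**Figure D3:**
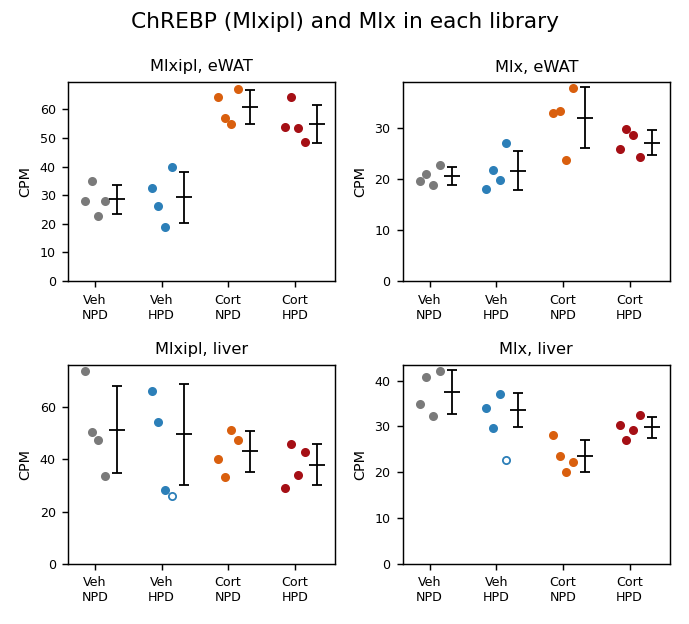
Levels (CPM, linear axes from 0) of Mlxipl and Mlx in each library by group, eWAT above and liver below; filled points are mice in the fits, open points are liver Veh HPD replicate 4, and bars are mean ± SD of the filled points. Mlxipl is higher in all Cort than in all Veh fat pads, and Mlx on the NPD is higher with cort in eWAT and lower with cort in liver.

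Set side by side in 1 fit of both tissues, the cort effect in liver minus that in eWAT was -1.30 ± 0.33 for Mlxipl on the NPD and -1.33 ± 0.34 on the HPD. For Mlx it was -1.27 ± 0.21 on the NPD and -0.54 ± 0.22 on the HPD. For Txnip it was 0.44 ± 0.29 on the NPD and -0.67 ± 0.30 on the HPD. Over all 16482 genes, 3.85% differed between the tissues on the NPD and 3.12% on the HPD at an adjusted p under 0.05.

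At an adjusted p under 0.05 over all genes (called), 2 of the 7 genes were called higher with cort on the NPD in eWAT, Mlxipl and Mlx, where 7.98% of 15187 genes were called, 4.05% higher and 3.93% lower. On the HPD 1 was called higher in eWAT, Mlxipl, and 1 lower, Txnip, against 6.09% of all genes, 3.46% higher and 2.63% lower. In liver 1 was called lower on the NPD, Mlx, against 12.6% of 12391 genes, 6.84% higher and 5.79% lower. In liver 1 was called lower on the HPD, Txnip, against 9.89%, 4.75% higher and 5.14% lower. The diet effect in Cort liver called 1 gene, Txnip, lower, against 5.88% of all genes, 3.08% higher and 2.8% lower. For the HPD in Cort eWAT 0 of the 7 were called, against 0.487% of all genes, 0.204% higher and 0.283% lower. For the HPD in Veh 0 of the 7 were called, against 0.0593% in eWAT (0.0132% higher, 0.0461% lower) and 0.169% in liver (0.105% higher, 0.0646% lower). For the interaction 0 of the 7 were called, against 0.0132% in eWAT (0.00658% each way) and 0.113% in liver (0.0565% each way). The genes were chosen with these contrasts known, so nothing is read from the counts. The share of all genes whose groups did not overlap was not computed, so nothing is read from members whose groups lay apart either. The median change of the 7 with cort in eWAT was -0.45 for NPD and 0.01 for HPD mice, and in liver -0.15 and -0.39, against medians over all genes of -0.02 or closer to 0. The Txnip call in eWAT did not hold in 5 of 16 fits that left out 1 library, where its change was -0.58 and -0.66 when Veh HPD replicates 2 and 4 were dropped and -0.71, -0.68 and -0.66 when Cort HPD replicates 2, 3 and 4 were dropped. It did not hold without the filter on low counts either (-0.70). Other settings also gave calls that the main settings did not. The liver Txnip interaction was called in 3 of 7 other settings and, of 15 fits that left out 1 library, in those without Veh NPD replicate 3 (-1.41) or Veh HPD replicate 1 (-1.37). Liver Arrdc3 with cort on the HPD was called in 4 of 8 other settings, the replicate block among them, and in 4 fits without 1 library, Veh NPD replicate 2 or 3 (-1.35), Veh HPD replicate 2 (-1.59) or Cort HPD replicate 3 (-1.60). Liver Arrdc4 with cort on the HPD was called in 3 of 8 and without Cort HPD replicate 1 (0.91), and on the NPD without Veh NPD replicate 4 (0.85) or Cort HPD replicate 1 (0.70). For eWAT Txnip the NPD cort effect passed in 3 of 7, the replicate block among them, and without Cort NPD replicate 2 (-0.66). The Mlx call in eWAT did not hold without Veh NPD replicate 3 (0.60) or without Cort NPD replicate 4 (0.55).

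**Figure D4:**
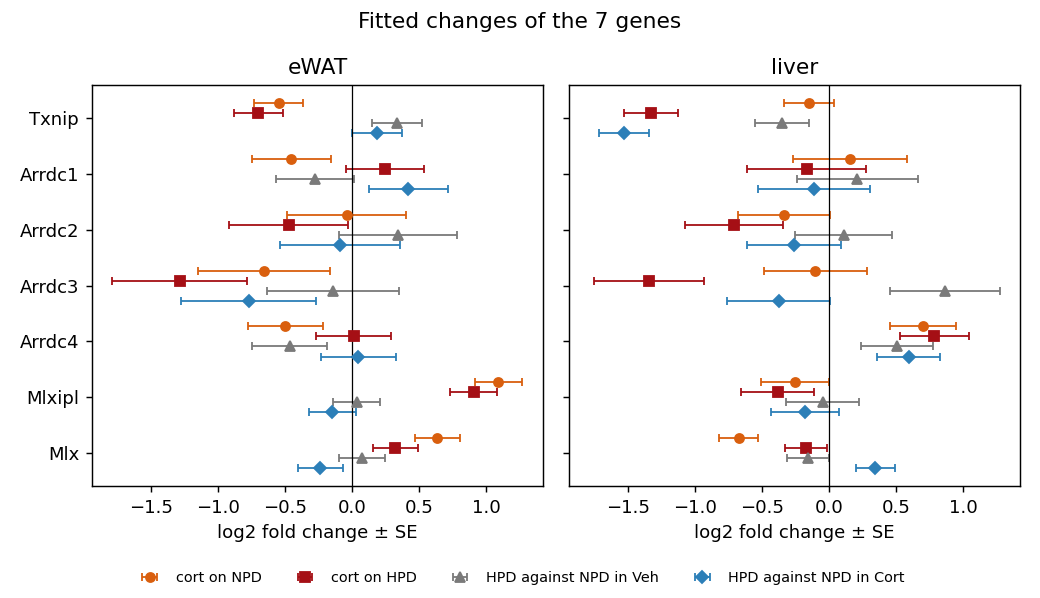
Fitted log2 fold changes of the 7 genes in eWAT (left) and liver (right), with bars of 1 SE, for cort on each diet and for the HPD against the NPD in each treatment; 0 is no change. Mlxipl and Mlx lie to the right with cort in eWAT, and in liver Txnip lies at -1.33 and -1.53 for the 2 comparisons that involve the Cort HPD group, next to Arrdc3 at -1.34 for cort on the HPD.

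Among 14 known ChREBP targets in sugar use, 7 rose with cort in liver on the NPD and none fell. Of all liver genes, 6.84% were called higher in that comparison and 5.79% lower. Tkfc, which phosphorylates the products of fructose cleavage, rose from 92.5 ± 7.35 to 398 ± 101 CPM (SD, n = 4), by 2.11 ± 0.20 on the log2 scale (edgeR adjusted p = 1.65e-07). Gpi1, glucose-6-phosphate isomerase, rose by 1.71 ± 0.22 (adjusted p = 2.42e-05). Khk, the ketohexokinase that starts fructose use, rose by 1.17 ± 0.17 (adjusted p = 6.31e-05) and Slc2a2, the hepatic glucose transporter, by 1.0 ± 0.20 (adjusted p = 0.00166). Slc2a5, a fructose transporter chosen after its values were seen, rose by 1.42 ± 0.27 (adjusted p = 0.00147), and Pklr is described next. The list's median change was 0.79, against -0.01 over all genes. This list and those below were written with earlier results of these data known, and their adjusted p-values do not allow for that. The hepatocyte marker sum in liver was 85126.8 to 107732 CPM in Cort NPD against 62052.6 to 92347.8 in Veh NPD. Its part in the liver values of this list and those below was not tested.

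Pklr, liver pyruvate kinase and a classic ChREBP target, shared with Txnip a lower level in Cort HPD than in Cort NPD liver, from a different starting point. It was 62.9, 43.3, 74.4 and 78.0 CPM in Veh NPD and 36.4, 33.4 and 38.9 CPM in Veh HPD. It was 223.0, 167.8, 162.5 and 234.0 CPM in Cort NPD and 59.1, 90.0, 38.3 and 73.6 CPM in Cort HPD, so all Cort NPD livers were above all others. The cort effect on the NPD was 1.61 ± 0.22 (edgeR adjusted p = 4.92e-05) and the HPD effect in Cort mice -1.59 ± 0.22 (adjusted p = 2.85e-04). The cort effect on the HPD was 0.85 ± 0.24 (adjusted p = 0.0296), and this call did not hold in 6 of 15 fits that left out 1 library, those without any one of the 3 Veh HPD livers (0.81 to 0.91) or without Cort HPD replicate 1, 2 or 4 (0.65 to 0.89). It held in 4 of 8 other settings. Khk too fell with the HPD in Cort mice, by 0.97 ± 0.17 (adjusted p = 0.00144), and these 2 were the only genes of the list called for diet. With the HPD in Cort liver 3.08% of all genes were called higher and 2.8% lower. The Khk diet call did not hold with liver Veh HPD replicate 4 put back (adjusted p = 0.12).

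On the HPD 7 genes of the sugar list rose with cort in liver and 1 fell, against 4.75% and 5.14% of all genes. Tkfc rose by 1.81 ± 0.22 (adjusted p = 9.32e-06) and Khk by 0.87 ± 0.19 (adjusted p = 0.0042). G6pc, the glucose-6-phosphatase of glucose release, rose by 1.17 ± 0.26 (adjusted p = 0.00594), from 195 ± 52.8 CPM (n = 3) to 439 ± 154 CPM (n = 4), whereas on the NPD its change was 0.04 ± 0.23 (adjusted p = 0.936). The G6pc interaction was 1.13 ± 0.34 (adjusted p = 0.196), so the effect was not shown to differ between diets. The gene that fell was Klf10, a transcription factor chosen after its values were seen (-0.90 ± 0.26, adjusted p = 0.0334). The list's median change was 0.69. The hepatocyte marker sum was higher in the same comparison, 125042 to 226504 CPM in Cort HPD liver against 55763.4 to 65302.9 in Veh HPD liver. Its part in these rises, and in those of the lipid list below, was not tested. In eWAT 10 genes of the list could be tested, Gpi1 rose on the NPD by 0.62 ± 0.11 (adjusted p = 5.52e-04), and none was called on the HPD.

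Of 10 known ChREBP targets in lipid synthesis, 2 rose with cort in liver on the NPD and 1 on the HPD. Of all liver genes, 6.84% were called higher on the NPD and 4.75% on the HPD. Mttp, which loads lipid onto lipoproteins, rose by 1.28 ± 0.14 on the NPD (adjusted p = 2.34e-06) and by 0.84 ± 0.16 on the HPD (adjusted p = 0.00127). Acaca, acetyl-CoA carboxylase, rose on the NPD by 1.38 ± 0.39 (adjusted p = 0.0325), and the call was lost without Cort NPD replicate 4 (0.88) and without Veh NPD replicate 1, 2 or 3 (1.24 to 1.39). Of 8 other settings, 6 kept the Acaca call. Fasn, fatty acid synthase, was 110.4 to 438.9 CPM in Cort NPD liver and its change was 1.0 ± 0.55 (adjusted p = 0.285). In eWAT Pnpla3, a lipase known to respond to sugar, rose by 0.83 ± 0.21 on the NPD (adjusted p = 0.0159, lost without Veh NPD replicate 1 or 2 or Cort NPD replicate 4 at 0.74 to 0.76) and by 1.49 ± 0.21 on the HPD (adjusted p = 1.69e-04). The NPD call held in 6 of 7 other settings. Thrsp, a lipogenic factor, rose on the NPD by 1.32 ± 0.30 (adjusted p = 0.0145, lost at 1.24 without Veh NPD replicate 2). Me1, malic enzyme, fell with the HPD in Cort eWAT by 1.63 ± 0.27 (adjusted p = 0.0128), and Scd1, stearoyl-CoA desaturase, by 1.26 ± 0.26 (adjusted p = 0.0411). Of 16 fits leaving out 1 library, 14 lost the Scd1 call (-1.33 to -1.12; it held without Veh HPD replicate 4 or Cort HPD replicate 2), and those without Cort NPD replicate 1 or Cort HPD replicate 3 or 4 lost the Me1 call (-1.66 to -1.56). Of 7 other settings, 4 kept the Scd1 call. The list's median in eWAT was 0.70 with cort on the NPD, -0.0032 on the HPD and -1.0 for the HPD in Cort mice, against 0.02 or less in size over all genes.

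**Figure D5:**
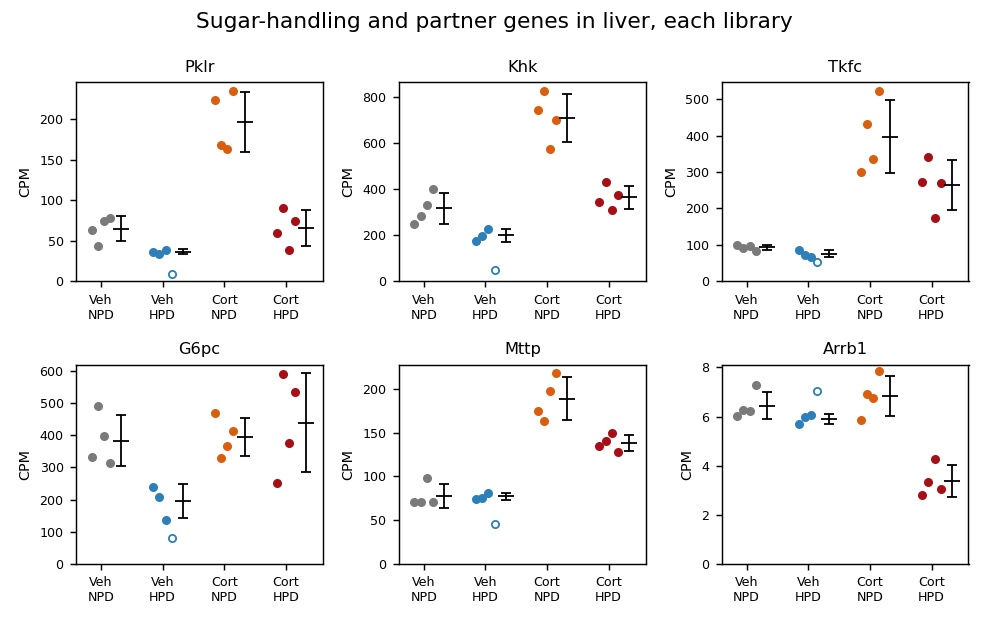
Levels (CPM, linear axes from 0) in each liver library of Pklr, Khk, Tkfc, G6pc, Mttp and Arrb1 by group; filled points are mice in the fits, open points are liver Veh HPD replicate 4, and bars are mean ± SD of the filled points. Pklr and Khk peak in Cort NPD, Tkfc and Mttp are high in both Cort groups, and Arrb1 is lowest in the 4 Cort HPD mice.

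Of 7 genes for glucose entry and phosphorylation 6 could be tested in each tissue. Cort called 2 higher and 1 lower in eWAT on the NPD and 1 higher on the HPD. The shares over all genes were 4.05% higher and 3.93% lower on the NPD, and 3.46% higher on the HPD. In eWAT Hk2, a hexokinase, rose with cort by 0.87 ± 0.13 on the NPD (adjusted p = 5.32e-05) and by 0.55 ± 0.13 on the HPD (adjusted p = 0.00822). Slc2a4, the insulin-responsive glucose transporter, rose on the NPD by 1.14 ± 0.20 (adjusted p = 0.0012), and on the HPD its change was 0.44 ± 0.20 (adjusted p = 0.241). Hk1 fell on the NPD by 0.74 ± 0.22 (adjusted p = 0.0306), a call lost in 7 of 16 fits without 1 library, those without Veh NPD replicate 1, 2 or 3 or without any one Cort NPD mouse (-0.78 to -0.60). In liver Slc2a4 was called higher on the NPD (2.59 ± 0.78, adjusted p = 0.0341) at 5.22 CPM or less, a call lost without Veh NPD replicate 1, 2 or 3 or Cort NPD replicate 4 (2.17 to 2.59) and without Cort NPD replicate 3 (1.68). Of 7 other settings, 4 kept that call.

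Of 15 genes for partners of Txnip and of arrestins, 12 could be tested in liver and 14 in eWAT. In liver cort called 1 lower on the NPD and 2 lower on the HPD, and the HPD in Cort mice called 1 lower. Of all liver genes, 5.79%, 5.14% and 2.8% were called lower in these comparisons. In eWAT 1 was called, higher with cort on the HPD, where 3.46% of all genes were called higher. Arrb1, beta-arrestin 1, was 2.80, 3.31, 4.28 and 3.04 CPM in Cort HPD liver and 5.69 to 7.84 CPM in the other 3 groups. It fell with cort on the HPD by 0.81 ± 0.21 (adjusted p = 0.0162, lost at -0.79 without Veh HPD replicate 2 or 3) and with the HPD in Cort mice by 1.02 ± 0.20 (adjusted p = 0.00316), while on the NPD cort called neither it nor Arrb2. The Arrb1 call for cort on the HPD held in 6 of 8 other settings. Arrb2 also fell with cort on the HPD, by 0.84 ± 0.20 (adjusted p = 0.00787). The macrophage marker sum was 90.8 to 184.6 CPM in Cort HPD liver, against 174.3 to 218.0 in Veh HPD and 77.6 to 146.1 in Cort NPD. Its part in the Arrb1 and Arrb2 values, and that of the endothelial sums given above, was not tested. Adrb3, the adipose beta-adrenergic receptor, fell in liver on the NPD by 1.83 ± 0.40 (adjusted p = 0.00384) at 4.19 CPM or less, and in eWAT its change was -0.44 ± 0.16 on the NPD (adjusted p = 0.0872) and -0.45 ± 0.16 on the HPD (adjusted p = 0.0917). Txn1, the thioredoxin that Txnip binds, was called in none of the comparisons, with -0.46 ± 0.17 in liver with cort on the NPD (adjusted p = 0.0782). Nedd4l, a ubiquitin ligase of the family that alpha-arrestins recruit, rose in eWAT with cort on the HPD by 0.71 ± 0.20 (adjusted p = 0.0281), a call lost without replicate 1 or 4 of Veh HPD or of Cort HPD (0.55 to 0.71). Of 7 other settings, 5 kept it.

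In the Mlx and Max network list 8 of 9 genes could be tested in each tissue. Of these 1 was called, lower with cort on the HPD in eWAT, where 2.63% of all genes were called lower. Mlxip (MondoA) fell with cort on the HPD in eWAT by 0.72 ± 0.22 (adjusted p = 0.0481), a call lost in 9 of 16 fits without 1 library (-0.78 to -0.57), those without Veh NPD replicate 2 or 3, Veh HPD replicate 1, 2 or 3 or any one Cort HPD mouse. It held in 5 of 7 other settings. In liver Mlxip was 0.848 to 3.93 CPM and its cort effect was -0.15 ± 0.36 on the NPD (adjusted p = 0.844) and -0.94 ± 0.38 on the HPD (adjusted p = 0.125). Of 9 glucocorticoid target genes 1, Fkbp5, was called higher in each tissue on the NPD, against 4.05% of all genes in eWAT and 6.84% in liver. On the HPD Sgk1, a kinase, and Zbtb16, a transcription factor, fell in eWAT by 1.14 ± 0.26 (adjusted p = 0.011) and 1.24 ± 0.33 (adjusted p = 0.0433, lost in 12 of 16 fits without 1 library). The eWAT Zbtb16 call held in 4 of 7 other settings. In liver Per1, Klf9 and Zbtb16 fell with cort on the HPD, by 1.59 ± 0.33 (adjusted p = 0.00416), 1.29 ± 0.28 (adjusted p = 0.00704) and 2.80 ± 0.66 (adjusted p = 0.0187, lost without Veh HPD replicate 2 at -2.20 or Cort HPD replicate 2 at -2.76). That Zbtb16 call held in 7 of 8 other settings. Zbtb16 was also called lower for the HPD in Cort liver (-2.44 ± 0.63, adjusted p = 0.0415), a call lost in 4 of 8 other settings and in 9 of 15 fits without 1 library, which ranged from -2.92 to -1.80.

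The genes whose pattern over the libraries of a tissue was most like that of each variable member were found by the root mean square difference of centred log2 CPM. For liver Txnip over 15 libraries they were Cpt1a, the gate of mitochondrial fatty acid oxidation (0.377), Arrb1 (0.388) and Prss53 (0.389), against a median of 0.809 over all genes. For eWAT Mlxipl over 16 libraries they were Pole4 (0.225), Cyb5a (0.225) and Cd38 (0.232), against 0.735. For eWAT Arrdc3 they were Fam214a (0.377), Cebpd (0.397) and Errfi1 (0.453), and for liver Arrdc3 Syne3 (0.394), Sema4c (0.411) and Fbxo5 (0.447). For liver Arrdc4 they were Ndel1 (0.270), Nudt4 (0.272) and Plekha1 (0.285). For Arrdc2 they were Ccn2 (0.437), Mertk (0.454) and Smim26 (0.455) in eWAT and Spata2l (0.304), Dclre1b (0.308) and Ip6k2 (0.311) in liver.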

How the data were processed

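RNA was measured in 32 libraries by QuantSeq 3′ mRNA-Seq. The authors deposited raw whole-number counts per Ensembl gene, built on GRCm38 per the labels. The aligner, counter and strand setting are not given in the sources used here. The submitters' notes also name limma. Symbols and positions came from GENCODE M21 (419 of 47643 IDs without a symbol) and promoter sequences from RefSeq (GRCm38.p6).

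Genes were filtered with filterByExpr (minimum count 10, minimum total 15), scaled by TMM and tested in each tissue with 1 mean per group by edgeR's quasi-likelihood test (edgeR 4.0.16, R 4.3.3), with Benjamini-Hochberg adjustment over all genes tested. SE is the fitted log2 change over the square root of F. The difference between tissues came from 1 fit of 31 libraries with no term for the mouse. CPM are after scaling. Count scaling within a library makes changes relative: a large gene group that rises lowers the others. The members and lists were chosen with earlier results of these data known, the lists from general knowledge. The adjusted p-values of list genes do not allow for that choice. Named genes are all members, up to 4 called genes per list and tissue by p, and 12 genes always given, among them Mlxip, Pklr, Khk, Fasn, G6pc, Slc2a2, Slc2a4, Txn1, Nedd4l, Adrb3 and Fkbp5. Values of some list genes are not reported here; they stay in the counts and medians of their lists. Alike genes were sought for members with an SD of log2 CPM over 0.5 (prior count 2), 3 each. No 2 of the 48 replicate pairs held identical counts. Each mouse is 1 replicate within a tissue, and the tests set each change against the spread between mice. The calling was tested on simulated data. The alternatives were RLE or no scaling factors, DESeq2 1.42.0, limma voom 3.58.1, no low-count filter, the 2 groups alone, a replicate block, all liver libraries and leaving out each library.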

Additional observations from a re-analysis of the deposited data

Results flagged for a closer look

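Among 19 genes (the 7 and the 12 always given) in 125 gene and group sets of 4 mice, 5 mice stood apart by Dixon's ratio at the 95% level, and chance flags about 1 in 20 sets. Txnip in liver Veh NPD replicate 3 was 169.9 CPM against 95.3 to 104.9 in the other 3. Fasn in liver Cort NPD replicate 4 was 438.9 CPM against 110.4 to 136.6. Slc2a4 in eWAT Veh HPD replicate 4 was 164.1 CPM against 72.6 to 88.1, and Mlxip in eWAT Cort HPD replicate 4 was 17.4 CPM against 14.8 to 15.2. Pklr in eWAT Cort NPD replicate 2 was 0.945 CPM, with 0 counts in the other 3.

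The cort effect differed between the tissues for these list genes, as liver minus eWAT on the log2 scale by edgeR. The fit had no mouse term, so any liver and eWAT from the same mouse were treated as independent. On the NPD the difference was 1.81 ± 0.35 for Tkfc (adjusted p = 0.00183), 1.52 ± 0.34 for Khk (adjusted p = 0.00786), 1.52 ± 0.40 for Mttp (adjusted p = 0.0236), 1.13 ± 0.25 for Gpi1 (adjusted p = 0.00568) and -1.37 ± 0.38 for Adrb3 (adjusted p = 0.0337). On the HPD it was 1.39 ± 0.37 for Tkfc (adjusted p = 0.0291), 1.23 ± 0.35 for Khk (adjusted p = 0.0467), 1.66 ± 0.43 for Mttp (adjusted p = 0.0262) and -0.81 ± 0.22 for Arrb1 (adjusted p = 0.0353). Also on the HPD it was -4.98 ± 1.08 for Pnpla3 (adjusted p = 0.00818) and -6.38 ± 1.78 for Fgf21 (adjusted p = 0.0482), where Pnpla3 was 1.34 CPM or less in liver and Fgf21 was at 0 in all eWAT Veh HPD libraries, so these sizes depend on the fit's handling of zeros. Leaving out 1 library lost the Fgf21 call in 22 of 31 fits, the Arrb1 call in 21, the Khk call on the HPD in 14 and the Tkfc call on the NPD in 0. The 7 genes were also searched on each diet for Cort and Veh values that lay apart in opposite directions in the tissues. Mlx on the NPD was picked by that search, with every Cort value above the Veh values in eWAT and below them in liver. The share of all genes that would be picked was not computed. For Mlx the difference was -1.27 ± 0.21 in the same fit. No p is given for it because Mlx was chosen with these results known.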

How the results depend on the processing

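Of the recomputed changes of the 7 genes, 1594 stayed within 1 within-group SD and 2 did not, Mlx in liver without scaling factors, -0.42 for cort on the HPD and 0.28 for the interaction. Without scaling factors the median over all liver genes shifted by -0.24 for cort on the HPD, by -0.17 for the HPD in Cort mice and by -0.22 for the interaction, and relative to that median Mlx was -0.17 and Txnip -1.32 for cort on the HPD. The share of calls that were higher then moved from 48.0% to 17.8% for cort on the HPD in liver, from 52.4% to 23.2% for the HPD in Cort liver, from 50.7% to 36.1% for cort on the NPD in eWAT, from 41.9% to 53.4% for the HPD in Cort eWAT, from 22.2% to 37.5% for the HPD in Veh eWAT, from 61.9% to 78.6% for the HPD in Veh liver and from 50% to 21.7% for the liver interaction (66.7% with RLE). Of 43 calls of named list genes, 26 held in every alternative that gave a value and 17 were lost in at least 1. The Txnip and Mlx calls in liver and the Mlxipl calls in eWAT held in every alternative. These members were chosen with the same contrasts known, so this describes the settings and adds no evidence for the changes.

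Counts of called genes moved by over 1.5 times as follows, in each case with the cause not tested. In eWAT the HPD effect in Veh (9) gave 16 without scaling factors, 126 with DESeq2, 19 with voom, 30 without a filter and 4 with the 2 groups alone. In Cort (74) it gave 195 with DESeq2 and 165 with the 2 groups alone. The eWAT interaction (2) gave 0 without scaling factors, 14 with DESeq2, 0 with voom and 4 without a filter, with 784 genes at an unadjusted p under 0.05. In liver the HPD effect in Veh (21) gave 113 with DESeq2, 56 without a filter and 7 with all 16 libraries. The liver interaction (14) gave 9 with RLE, 23 without scaling factors, 130 with DESeq2, 7 with voom, 72 without a filter and 1 with all 16 libraries. All 16 liver libraries gave 998 calls for cort on the NPD (1565) and 371 for the HPD in Cort (729). The tissue difference gave 423 with voom on the NPD (635). For the HPD (514) it gave 339 with voom and 842 with DESeq2; these alternatives were chosen after seeing the data.

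Leaving out each library in turn gave, in eWAT, 872 to 1450 calls for cort on the NPD, 581 to 1265 for cort on the HPD, 5 to 64 for the HPD in Veh, 26 to 124 in Cort and 0 to 6 for the interaction. In liver it gave 1078 to 1963, 714 to 1222, 5 to 40, 356 to 757 and 2 to 39, and for the tissue difference 453 to 722 on the NPD and 379 to 511 on the HPD.

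With the replicate number as a block the eWAT interaction gave 9 calls, and no other count of calls moved by over 1.5 times. Deviations of same-numbered samples from their group means had correlations of -0.115 to 0.253 over 16 pairs in eWAT. In liver they were -0.131 to 0.159 over 14 pairs, and 1 in eWAT and 2 in liver were over 0.1. Differently numbered pairs, and pairs of liver with eWAT, were not compared. Whether the number marks a shared batch or mouse was therefore not tested.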
